A study of Mus musculus with 8 samples.

Results

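The genes described here encode the proteins of the cytosolic ribosome, and their mRNA was compared between the cortex of 4 dcKO_hGFAP-Cre and 4 control mice at P3 (postnatal day 3). They were chosen by name: protein-coding genes with a symbol of the form Rpl or Rps followed by a number, together with Rplp0, Rplp1, Rplp2 and Rpsa, and without pseudogenes and Rps6 kinases. The rule found 84 of the 48709 genes counted, of which 52 encode proteins of the large subunit and 32 proteins of the small subunit. The filter on low counts kept 81 of the 84, and 16525 genes in all. The 3 that it left out were Rpl3l, Rpl10l and Rpl39l.

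The dcKO_hGFAP-Cre mice carry 2 floxed copies of the genes for BAF155 and BAF170 (Smarcc1 and Smarcc2), scaffolding subunits of the BAF chromatin remodelling complex, and a Cre transgene. The control group carries the same Cre and 1 floxed copy of each gene by the description of the study, and is called WT in the sample labels, so the labels and the methods differ. All mice were on the C57BL/6J background. A human GFAP promoter drives Cre in radial glial cells of the dorsal telencephalon, so cells of other origin, such as blood vessels and microglia, lie outside its reach. In the mutants, Smarcc1 mRNA fell by 0.97 and Smarcc2 mRNA by 0.77 on the log2 scale, and for both every mutant lay below every control.

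A ribosome is built from a large subunit, which joins amino acids into a chain, and a small subunit, which reads the mRNA. Each subunit is a core of ribosomal RNA to which many different proteins bind, mostly as single copies, so the cell has to make these proteins in matching amounts. Their mRNAs are among the most abundant in growing cells, and most begin with a run of pyrimidines, the terminal oligopyrimidine (TOP) tract, through which the mTOR pathway controls their translation. Transcription of many ribosomal protein genes is promoted by MYC, and a shortage of single ribosomal proteins can stabilise p53.

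The start regions of some members described in the results are printed first, to show the pyrimidine runs that lie near their annotated starts. Promoter sequences from 250 bases before to 50 bases after the start were taken from RefSeq (GRCm38.p6) and were matched for 64 of the 84 genes, with 76 windows. The lines below give 30 bases each, 5′ to 3′ on the strand of the gene, with the longest run of C and T within 50 bases of the start in capitals, or, where runs are equally long as in Rps27l, the one nearest the start. A TOP tract begins at the first base of the mRNA, and a run in these windows need not do so. Those of Rpl22 and Rps27l lie before the annotated start and those of Rpl4 and Rps2 after it. That of Rpl22l1 begins 1 base after the start, and that of Rps18 spans it. The printed run of Rps24 lies before 1 of its annotated starts and after another, and those of Rpl34 and Rpl35a span 1 of theirs.
Rpl34 (chr3:130730330-130730359, minus strand): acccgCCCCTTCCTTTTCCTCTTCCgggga
Rpl35a (chr16:33056468-33056497, plus strand): cggggcttgCCTTCCTCTTTCCgccatctt
Rps18 (chr17:33955648-33955677, minus strand): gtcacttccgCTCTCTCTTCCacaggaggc
Rps24 (chr14:24490710-24490739, plus strand): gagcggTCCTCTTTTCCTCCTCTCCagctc
Rps27l (chr9:66946063-66946092, plus strand): actcctctccaCTCCTCCCCgccgcctcta
Rpl22 (chr4:152325679-152325708, plus strand): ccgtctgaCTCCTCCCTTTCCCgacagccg
Rpl22l1 (chr3:28805499-28805528, plus strand): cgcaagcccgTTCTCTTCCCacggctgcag
Rpl4 (chr9:64173405-64173434, plus strand): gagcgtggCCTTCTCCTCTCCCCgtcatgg
Rps2 (chr17:24720083-24720112, plus strand): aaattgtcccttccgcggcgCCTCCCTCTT
Rpl34, Rpl35a, Rps18, Rps24, Rps27l and Rpl22l1 are members whose mRNA rose by 0.61 or more on the log2 scale. Rpl4 and Rps2 are abundant members that did not pass the test, and Rpl22 is the partner of the paralog Rpl22l1. A run of at least 8 C or T was found within 50 bases of the start in 77.6% of the 76 windows of members and in 35.7% of all 32851 promoter windows, which include the members. The share was higher in members for each of the 5 other motifs listed, searched in the whole 300-base window on both strands. CCGGAAG, a form of the ETS motif, was in 35.5% of member windows and 8.86% of all windows. AAGATGGC, the YY1 motif, was in 10.5% and 2.75%. GGGCGG was in 60.5% and 35.7%, and CTTTCC was in 50% of member windows and 26.6% of all windows. The E box CACGTG was in 10.5% and 7.15%, a small difference that rests on 8 member windows of 6 genes. Windows of the same gene can overlap, and none of these differences was tested.

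mRNAs of ribosomal proteins were higher in dcKO_hGFAP-Cre cortex. Of the 81 tested, 56 rose, none fell, and 25 did not pass the test (edgeR's quasi-likelihood F test, adjusted p under 0.05 over all 16525 genes). Of all genes tested, 18.6% rose and 18.9% fell. The log2 fold change was above 0 for 79 of the 81, and its median was 0.53, with quartiles of 0.35 and 0.66, whereas the median over all genes was 0.02. For 44 members all 4 mutants lay above all 4 controls, and for none all below. Over all genes, 16.7% separated upwards in this way. Of the 56 calls, 44 were made in each of the 8 fits that left out 1 sample, and the other 12, among them Rpl5, Rpl9, Rpl13, Rpl14, Rpl18, Rpl22, Rpl41, Rplp2, Rps4x, Rps20 and Rps27, were lost in at least 1 of them. Scaled by library totals alone, which moved the median of all genes up by 0.12, 71 members rose and 27.7% of all genes did, and 4584 genes rose and 2102 fell in place of 3074 and 3128. In bulk tissue a change in the kinds of cells present and a change in RNA per cell cannot be told apart.

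**Figure D1:**
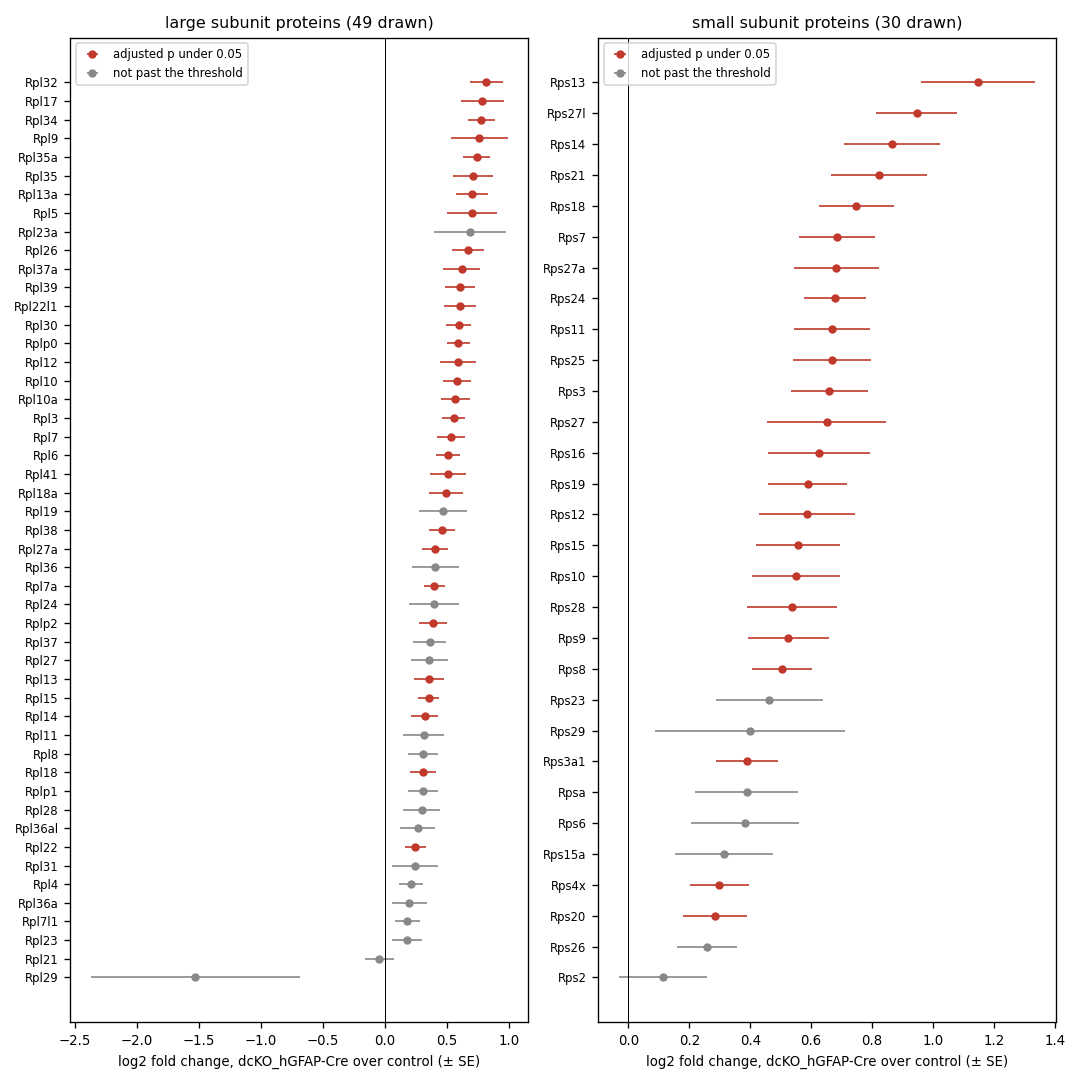
Log2 fold change of ribosomal protein mRNAs in dcKO_hGFAP-Cre over control cortex, with its standard error as a bar, for the 49 large subunit and for 30 of the 32 small subunit proteins tested (2 that passed the threshold are not drawn), each panel with its own horizontal scale. Red points passed the adjusted threshold of 0.05; 31 large subunit and 23 small subunit proteins are red, all to the right of 0, and Rpl29 has by far the widest bar.

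Ribosomal protein mRNA as a whole took a larger share of the counts. The 84 members took 0.612%, 0.537%, 0.576% and 0.646% of all counts in controls 1 to 4 and 0.865%, 1.03%, 0.977% and 0.733% in mutants 1 to 4. The groups did not overlap. The means were 0.593% ± 0.047 (SD, n = 4) and 0.902% ± 0.133 (SD, n = 4), a ratio of 1.52. Genes of the mitochondrial genome also took more of the counts, 2.06% to 3.23% in control and 3.57% to 5.47% in dcKO_hGFAP-Cre samples. Without those genes in the total, the ratio for the members was 1.55.

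Among the mutants the size of the change varied. Relative to the mean of the controls, the median of the 81 members stood at 0.46, 0.72, 0.56 and 0.30 log2 units in mutants 1 to 4, and at 0.02, -0.13, -0.03 and 0.13 in controls 1 to 4. dcKO_hGFAP-Cre 2 was the highest mutant for 54 members and dcKO_hGFAP-Cre 4 the lowest for 57. The number of members above all controls was 71, 75, 73 and 50 in mutants 1 to 4. The labels place replicates 1 and 2 of both groups on sequencing lane 5, replicates 3 on lane 6 and replicates 4 on lane 7. Within lanes, the median difference between mutant and control was 0.60 on lane 5, 0.61 on lane 6 and 0.14 on lane 7, with 79, 79 and 55 of the 81 members above 0.

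**Figure D2:**
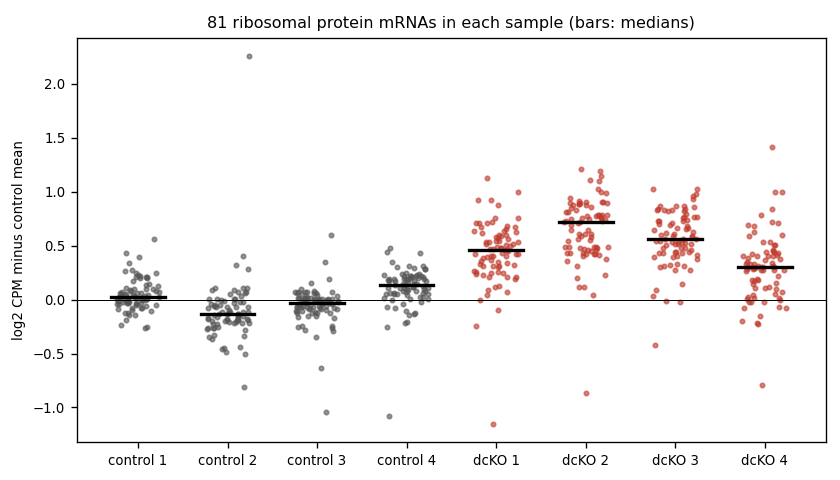
Log2 CPM of the 81 tested ribosomal protein mRNAs minus the mean of the controls, 1 point per gene and sample, with the median of each sample as a black bar. The medians of mutants 1 to 4 (0.46, 0.72, 0.56 and 0.30) lie above those of the controls (-0.13 to 0.13), and the lowest mutant is dcKO_hGFAP-Cre 4; the high point in control 2 is Rpl29.

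Levels of the 81 tested members spanned a wide range. They were divided by the length of all annotated exons of a gene, taken over all its transcripts. This length can exceed that of any one mRNA (4483 bases for Rps3, 499 for Rplp1), so ranks between genes depend on the annotation. Per kilobase of exon, the mean level in control cortex ran from 0.691 to 531 CPM (the normalized count scaled to a common library total), with a median of 14.5. Without division by length, Rpl4 had the highest level, at 621 CPM. High levels in control were those of Rplp1 at 531 ± 54.3 CPM per kb (SD, n = 4), Rpl8 at 337 ± 41.3, Rpl4 at 309 ± 8.05 and Rps15 at 304 ± 41.6. Rpl8, Rpl4 and Rps15 lay within the spread of one another. The lowest of the 81 were Rps6 at 1.26 ± 0.142, Rpl24 at 1.16 ± 0.161 and Rpl23a at 0.691 ± 0.173 CPM per kb, of which Rps6 and Rpl24 lay within the spread of each other.

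Many ribosomal protein genes have near-identical processed copies in the genome, and how the counting treated reads that match several genes is not given in the sources used here. For each member, the share of its 50-base words found in no other annotated gene was computed. It was 97% for Rps3 and 94% for Rpl8, and 15% for Rps6, 18% for Rpl24 and 14% for Rpl23a. Across the 81 members, the share and the level per kilobase in control had a Spearman rho of 0.46, a description over genes of the same libraries. The share and the log2 fold change had a rho of -0.04. The 19 members with a share of 75% or more had a median log2 fold change of 0.53, with 13 that rose. The 51 members between 25% and 75% had a median of 0.53, with 37 that rose, and the 11 members under 25% had a median of 0.40, with 6 that rose. The gene model of 49 members overlaps another annotated gene, often a small nucleolar RNA in an intron, and the strand setting of the counting is not given. Of these 49, 36 rose, with a median of 0.55, and of the 32 tested without such a neighbour 20 rose, with a median of 0.48. Levels of members that share most of their sequence are uncertain, and the medians of the 3 classes were not tested against each other.

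One member with much unique sequence was examined in every sample. Rps3 (ENSMUSG00000030744, mm10 chromosome 7 from 99477896 to 99483738), which lines the channel where mRNA enters, was at 479, 404, 444 and 544 CPM in control and at 673, 873, 822 and 588 CPM in dcKO_hGFAP-Cre samples. It rose by 0.66 (SE 0.13, adjusted p = 0.0020), and every mutant lay above every control.

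The smallest p-values belonged to Rps27l, Rpl34, Rpl35a and Rps24. Rps27l (ENSMUSG00000036781, mm10 chromosome 9 from 66946086 to 66949516), a paralog of Rps27 and a known p53 target, was at 8.51, 8.87, 10.4 and 11.3 CPM in controls 1 to 4 and at 18.5, 21.7, 19.8 and 15.8 CPM in mutants 1 to 4. Its groups were well apart, with a log2 fold change of 0.95 (SE 0.13, adjusted p = 2.11e-04). Rpl34 (ENSMUSG00000062006, mm10 chromosome 3 from 130726831 to 130730398), a large subunit protein, was at 63.6, 54.2, 60 and 69.2 CPM in control and at 101, 123, 112 and 87.5 CPM in dcKO_hGFAP-Cre samples. The groups did not overlap, and the log2 fold change was 0.78 (SE 0.11, adjusted p = 2.23e-04). Rpl35a (ENSMUSG00000060636, mm10 chromosome 16 from 33056453 to 33060189), whose mutation can cause Diamond-Blackfan anaemia, was at 28.2, 23.6, 24 and 27.9 CPM in control and at 40.7, 47.9, 47.3 and 37.5 CPM in dcKO_hGFAP-Cre samples. It also separated fully, with a log2 fold change of 0.74 (SE 0.11, adjusted p = 2.50e-04). Rps24, another protein of that disease, rose by 0.68 (SE 0.10, adjusted p = 3.60e-04) from 70.8 to 82.1 CPM in control to 102 to 144 CPM in dcKO_hGFAP-Cre samples. Rps18, of the small subunit, was at 29.1, 27.3, 26.7 and 32.8 CPM in control and at 45, 58.9, 51.9 and 39.3 CPM in dcKO_hGFAP-Cre samples, without overlap (log2 fold change 0.75, SE 0.12, adjusted p = 6.26e-04).

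The 8 largest rises were those of Rps13, Rps27l, Rps14, Rps21, Rpl32, Rpl17, Rpl34 and Rpl9, with log2 fold changes from 1.15 down to 0.76. Rps13 had the highest of them, but on few reads. Its level was 4.88, 3.99, 3.12 and 3.09 CPM in controls 1 to 4 and 8.17, 8.56, 6.48 and 10 CPM in mutants 1 to 4, a 2.22-fold difference without overlap (adjusted p = 6.01e-04). Rps14, a small subunit protein, was at 175, 143, 174 and 201 CPM in control and at 282, 398, 350 and 235 CPM in dcKO_hGFAP-Cre samples, a log2 fold change of 0.87 (SE 0.16, adjusted p = 0.0017). Rps21 rose by 0.82 (SE 0.16) and Rpl32 by 0.82 (SE 0.13). Rpl17, at the exit of the peptide tunnel, rose by 0.79 (SE 0.17) from a low level of 3.72 to 6.06 CPM. Rpl9 rose by 0.76 (SE 0.23), its groups overlapped, and its call was lost when control 3, control 4, mutant 1 or mutant 4 was left out (adjusted p up to 0.0681).

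**Figure D3:**
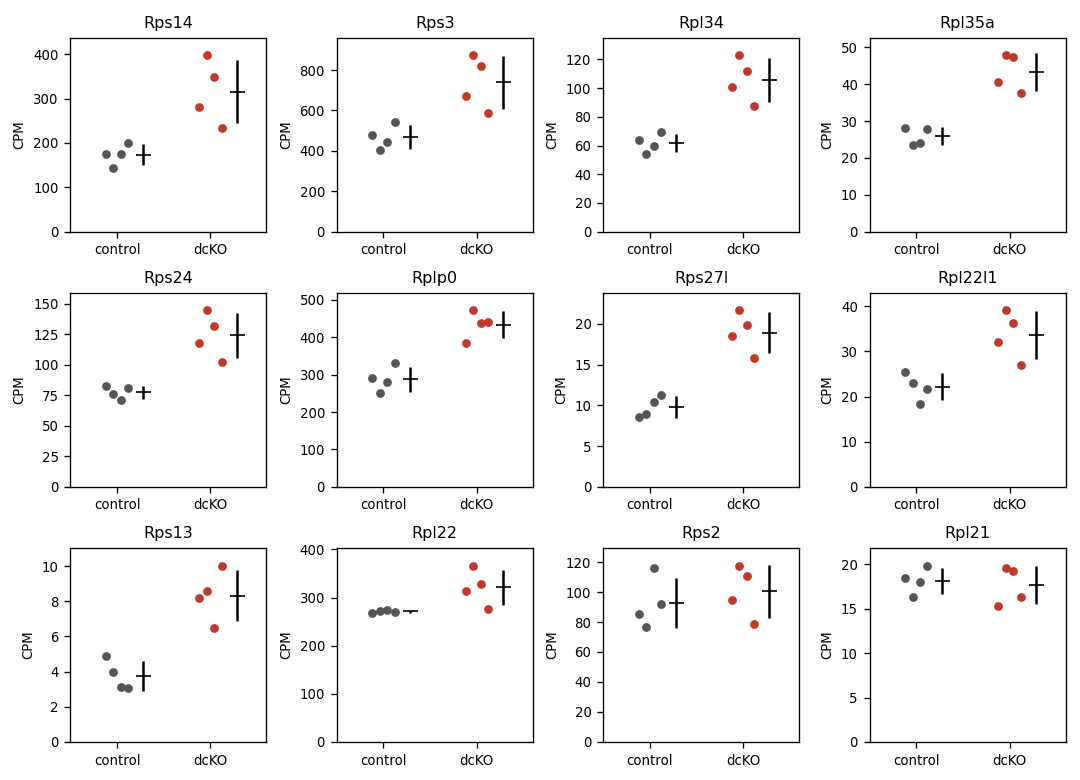
CPM of 12 ribosomal protein mRNAs in the 4 control (grey) and 4 dcKO_hGFAP-Cre (red) samples, with mean and SD as a black bar; each vertical axis starts at 0. All mutants lie above all controls for Rps14, Rps3, Rpl34, Rpl35a, Rps24, Rplp0, Rps27l, Rpl22l1, Rps13 and Rpl22, and the groups overlap for Rps2 and Rpl21.

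mRNAs for proteins of both subunits rose. Here and below, a protein said to rise or fall is one whose mRNA did so, as protein was not measured. Of the 32 small subunit members tested, 25 rose, with a median log2 fold change of 0.58, and all 32 were above 0. Of the 49 large subunit members, 31 rose, with a median of 0.46. The difference between the subunits was not tested.

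Functional parts of the ribosome were examined next. Of the 4 proteins of the P stalk, which recruits translation factors to the large subunit, 3 rose. Rplp0, its base, was at 290, 250, 281 and 330 CPM in controls 1 to 4 and at 385, 472, 437 and 442 CPM in mutants 1 to 4, without overlap (log2 fold change 0.59, SE 0.09, adjusted p = 4.73e-04). Rpl12 rose by 0.59 and Rplp2 by 0.39, and Rplp1 stood at 0.30 (adjusted p = 0.0651). Rpl5 and Rpl11, which carry the 5S RNA into the large subunit and can bind the p53 regulator MDM2 when free, had log2 fold changes of 0.70 (adjusted p = 0.0171) and 0.31 (adjusted p = 0.154). Of 8 proteins around the peptide exit tunnel, 4 rose, Rpl26 (0.67), Rpl39 (0.61), Rpl17 (0.79) and Rpl35 (0.71). Of 8 proteins at the mRNA channel and decoding region, 5 rose, and the others were Rps2 at 0.11 on the log2 scale (adjusted p = 0.568), Rps23 at 0.46 and Rps26 at 0.26. Of 18 genes that cause Diamond-Blackfan anaemia when mutated, 13 rose, with a median of 0.56. These shares, which lie between 50% and 75%, are to be read against 69.1% of all members tested and 18.6% of all genes.

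Extra paralogs of ribosomal proteins are used in place of the common form in some tissues. Of the 8 on the list, Rpl3l, known from heart and skeletal muscle, had 51 counts over all 8 samples, Rpl39l had 30, and the testis gene Rpl10l had 1, and none was tested. Rps27l rose as given above. Its partner Rps27 rose by 0.65 (adjusted p = 0.0198) from a level of only 1.63 to 1.99 CPM in control. Rpl22l1 was at 25.5, 23.1, 18.3 and 21.7 CPM in controls 1 to 4 and at 32.1, 39.1, 36.4 and 27 CPM in mutants 1 to 4. All mutants were above all controls, and it rose by 0.61 (SE 0.13, adjusted p = 0.0037). Rpl22, which is known to repress Rpl22l1, was at 268, 273, 274 and 270 CPM in control and at 314, 366, 327 and 276 CPM in dcKO_hGFAP-Cre samples. It rose by 0.24 (SE 0.08, adjusted p = 0.0375), a call that was lost when any 1 sample but dcKO_hGFAP-Cre 4 was left out. Rpl7l1, which acts in ribosome assembly, and Rpl36al had log2 fold changes of 0.18 (adjusted p = 0.174) and 0.26 (adjusted p = 0.154). Rps4l is annotated as a transcribed pseudogene and is no member, and its log2 fold change was 0.53 (adjusted p = 0.0054). Of the 8 partners, all but Rpl36a rose, Rpl3 by 0.55, Rpl10 by 0.58, Rpl39 by 0.61, Rpl7 by 0.53 and Rps4x by 0.30.

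The 5 members with the log2 fold change closest to 0 were Rpl21 (-0.04), Rps2 (0.11), Rpl23 (0.18), Rpl7l1 (0.18) and Rpl36a (0.20). Rps2, at the mRNA entry of the small subunit, was at 85.6, 76.9, 116 and 91.9 CPM in control and at 94.6, 118, 111 and 78.4 CPM in dcKO_hGFAP-Cre samples, so the groups overlapped fully. Rpl21 was at 16.3 to 19.9 CPM in control and at 15.3 to 19.6 CPM in dcKO_hGFAP-Cre samples. Rpl29, named after its values were seen, was the other member below 0. It was at 1.79, 9.81, 0.93 and 0.902 CPM in controls 1 to 4 and at 0.855, 1.06, 1.47 and 1.12 CPM in mutants 1 to 4, so its log2 fold change of -1.53 (SE 0.84, adjusted p = 0.192) rested on control 2.

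Rack1 and Fau encode ribosomal proteins that the naming rule does not reach, and both rose. Rack1, a signalling scaffold on the small subunit, was at 580, 513, 575 and 666 CPM in control and at 784, 963, 914 and 658 CPM in dcKO_hGFAP-Cre samples, and it rose by 0.51 (SE 0.12, adjusted p = 0.0051). Fau, which makes a small subunit protein fused to a ubiquitin-like one, rose by 0.68 (adjusted p = 0.0170). The call of Fau was lost in at least 1 fit that left out a sample (adjusted p up to 0.0584). It was also lost with the offset for GC content and length described below (0.42, adjusted p = 0.0604), whereas Rack1 stayed called in all of these fits. Rps27a, a member whose protein is made as a fusion to ubiquitin, rose by 0.68 (adjusted p = 0.0026), and stood at 0.29 with the offset (adjusted p = 0.148).

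Other genes of translation were set beside the members. Of 77 mitochondrial ribosomal proteins tested, 26 rose and none fell, with a median log2 fold change of 0.24, led by Mrpl14 (0.74), Mrpl41 (0.60) and Mrpl33 (0.63). Of 17 other TOP mRNAs, 7 rose and none fell, with a median of 0.21. This list shares Rack1 and Fau with the proteins above. Eif3h, a subunit of the factor that prepares the small subunit for initiation, rose by 0.53 (adjusted p = 0.0015). Of 35 initiation factors, 6 rose and 7 fell, with a median of -0.01. Of 9 elongation factors, 3 rose, Eef1e1 (0.35), Eef1b2 (0.32) and Eef1a1 (0.31), and Eif5a2 fell by 0.31. Eef2, which moves the ribosome along the mRNA, stood at -0.08 on the log2 scale (adjusted p = 0.343).

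Among genes that build ribosomes, more were called lower than higher, but about as many lay above 0 as below it. Of 38 ribosome biogenesis factors, 2 rose and 10 fell, whereas 18.6% of all genes rose and 18.9% fell. The log2 fold change was above 0 for 20 of the 38 and below 0 for 18, with a median of 0.01. Bysl, required for small subunit maturation, was at 65.1, 64.3, 78.2 and 78.8 CPM in control and at 48.5, 49.5, 52.9 and 48.6 CPM in dcKO_hGFAP-Cre samples, and it fell by 0.52 (adjusted p = 8.80e-04). Rrp12 fell by 0.55 and the nucleolar helicase Ddx21 by 0.45. Of 11 genes of the RNA polymerase I machinery, which transcribes ribosomal RNA, 2 rose and none fell, with a median of 0.03. Of 21 MYC and mTOR regulators, 2 rose and 6 fell. Myc was at 66.8, 77.7, 75.2 and 75 CPM in controls 1 to 4 and at 37.7, 40.2, 48 and 34.8 CPM in mutants 1 to 4, a fall by 0.88 (SE 0.10, adjusted p = 5.85e-05). Mycn fell by 0.66 (adjusted p = 0.0010), whereas Mxi1, a MYC antagonist, rose by 0.37. The log2 fold changes of these lists were not tested against those of the members.

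**Figure D4:**
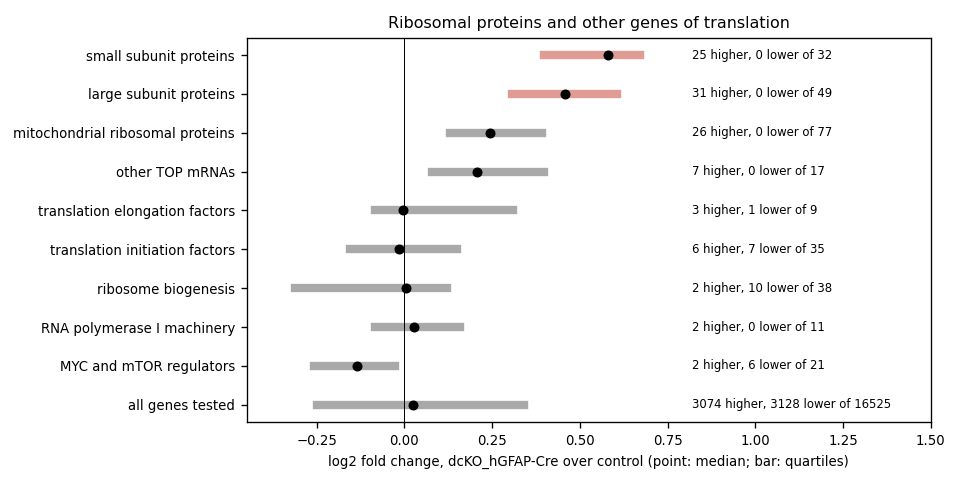
Median (point) and quartiles (bar) of the log2 fold change in dcKO_hGFAP-Cre over control cortex for small and large subunit ribosomal proteins, other gene lists of translation and all genes tested, with the number of genes that passed the test in each direction. The medians of the small and large subunit lie at 0.58 and 0.46, that of mitochondrial ribosomal proteins at 0.24, and those of elongation, initiation and biogenesis lists near 0.

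Short transcripts were higher in dcKO_hGFAP-Cre cortex generally. Over all genes, divided by transcript length into 5 classes of equal size, the median log2 fold change was 0.27 in the shortest class and -0.14 in the longest, and 61 of the 81 members lie in the shortest class, where their own median was 0.51. Divided by mean log2 CPM instead, all genes had a median of 0.30 in the lowest class and -0.14 in the highest. In that highest class lie 25 members, with a median of 0.53. The trend with level is not part of the offset given next. With an offset that takes the trends with GC content and length out of each sample, 35 of the 81 members rose (43.2%, against 15.6% of all genes), none fell, and 70 were above 0. The median of the members was then 0.28, and that of mitochondrial ribosomal proteins 0.03. The members themselves enter the fitted trend. Members such as Rps13 (0.99), Rpl9 (0.69), Rps3 (0.63), Rps24 (0.62), Rps14 (0.61), Rpl35a (0.60) and Rpl34 (0.56) kept a call of higher with the offset, as did Rps27l (0.44) and Rplp0 (0.40). All 35 calls were among the 56 made without it. Of the 11 members with a log2 fold change below 0 under the offset, Rps4x alone had been called before, and Rpl4, Rplp1, Rpl23, Rpl36a and Rps2 were among the others. The parts of the ribosome lost calls as well: with the offset 2 of 4 P stalk proteins rose, neither of the 5S proteins, 3 of 8 at the exit tunnel, 4 of 8 at the mRNA channel and 8 of 18 genes of Diamond-Blackfan anaemia. Of the 8 partners of the paralogs, 2 stayed called, Rpl3 and Rpl7, and Rpl10 (adjusted p = 0.176), Rpl39 (0.122), Rps27 (0.203), Rpl22 (0.212) and Rps4x (0.832) did not.

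Other lists changed under the same offset. Of 17 other TOP mRNAs, 2 rose and 1 fell, with a median of 0.096. Of 9 elongation factors, none rose and 2 fell, and Eef1b2 stood at 0.12 (adjusted p = 0.189). Of 35 initiation factors, 3 rose and 8 fell, and of 11 genes of the RNA polymerase I machinery none rose or fell. Of 38 biogenesis factors, 11 fell and none rose, where 3234 of all 16525 genes fell and 2585 rose. Of 21 MYC and mTOR regulators, 4 rose and 4 fell, and Myc fell by 0.94. Integrity of the RNA was not tested.

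**Figure D5:**
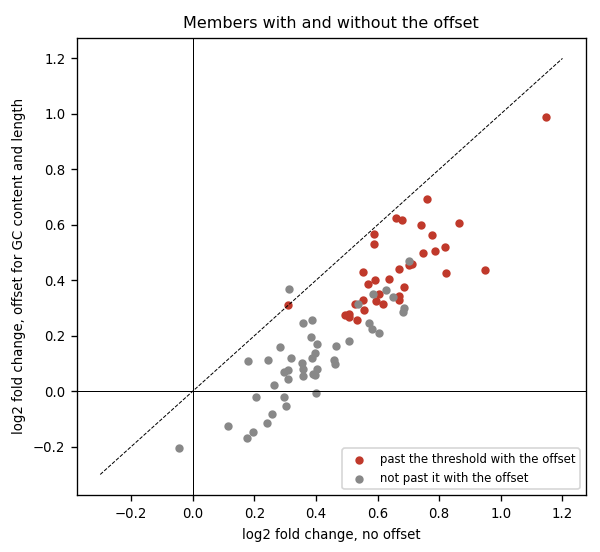
Log2 fold change of 80 ribosomal protein mRNAs without (horizontal) and with (vertical) an offset for length and GC content, Rpl29 left out; the dashed line marks equal values and red points passed the adjusted threshold of 0.05 with the offset. Nearly all points lie under the line, and the median falls from 0.53 to 0.28 over the 81 members.

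Markers of cell types also differed between the groups, none of the markers listed here was at 0 throughout a group, and their part in the results on ribosomal proteins was not tested. Of 13 markers of cortical neurons, 10 fell and none rose, and their summed level was 10515 to 11421 CPM in control and 7490 to 8218 CPM in dcKO_hGFAP-Cre samples. Of 12 markers of progenitors and cycling cells, 4 rose and 1 fell, with sums of 1626 to 1663 CPM and 1397 to 2472 CPM. Of 10 microglial markers, 8 rose, with sums of 130 to 170 CPM and 240.1 to 293 CPM. Of 8 striatal markers, 5 rose, with sums of 122 to 175 CPM and 364 to 703 CPM. Of 6 endothelial markers, 3 fell, with sums of 166 to 221 CPM and 92.6 to 164 CPM. None of 5 erythroid or 6 meningeal markers passed the test. Their sums were 53.5 to 73.1 CPM and 37.1 to 130 CPM for the erythroid list, and 52.2 to 199.8 CPM and 17.6 to 399 CPM for the meningeal list. Choroid plexus markers were high in dcKO_hGFAP-Cre 1 and 2 alone, with sums of 610.1 and 1171 CPM, against 20.7 and 4.05 CPM in mutants 3 and 4 and 4.05 to 13.3 CPM in control. With dcKO_hGFAP-Cre 1 and 2 both left out, 29 of 82 members tested rose (35.4%, against 8.06% of all genes), none fell, 79 were above 0, and the median was 0.46.

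The presence of the pyrimidine run or of another motif was also set beside the change. Of the 61 members tested with a promoter sequence, the 51 with the run had a median log2 fold change of 0.53 and 37 of them rose, and the 10 without it had a median of 0.39 and 6 of them rose. The 25 with CCGGAAG had a median of 0.46 and the 36 without it of 0.55, and the 6 with CACGTG had a median of 0.53 and the 55 without it of 0.51. These values are a description, and the absence of a motif says only that the letters are not in the window. Windows for starts that RefSeq does not hold in its table were not examined.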

How the data were processed

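Bulk RNA was sequenced from cortices taken at P3 from 4 control and 4 dcKO_hGFAP-Cre mice. RNA was isolated with TRIzol and libraries were made with the TruSeq RNA v2 kit. The authors deposited raw counts per gene, made with featureCounts on mm10. The aligner, annotation, strand setting and treatment of reads matching several genes are not given in the sources used here. Total counts were 21126713 to 31805395 in control and 22002784 to 32110285 in dcKO_hGFAP-Cre samples. A count of 3 in the shallowest sample is 0.142 CPM, and intervals from counts cover counting error only. Since nothing says more than that samples are separate mice, p-values measure the spread between these samples.

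Of 48709 gene identifiers, 48349 were matched to the mouse GENCODE release M21 of the same build. Counts were normalized by TMM, filtered with a minimum count of 10 and tested with the quasi-likelihood F test of edgeR 4.0.16 (R 4.3.3), with Benjamini-Hochberg adjustment over all genes tested and a threshold of 0.05. Log2 CPM used a prior count of 2. Exact permutation tests of 4 against 4 could not go below 0.0286 and are not used for calls. The test was tried first on simulated data. Alternatives used DESeq2 1.42.0, limma 3.58.1, other scalings, filters, blocks, an offset for length and GC content, and leaving out each sample. The members, the gene lists and the rule for named genes were chosen with earlier results of these data known. Named are the paralogs and their partners, P stalk, 5S and ubiquitin-fusion proteins, the 8 largest rises and falls, the highest and lowest levels per kilobase, the 5 members closest to 0, and the 3 genes with the smallest p of each other list. Members with extreme values or of high sequence uniqueness were added after their values were seen. Some genes that the rule names are left out of the text, and are not reported here, while counts and medians over the members include them.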

Additional observations from a re-analysis of the deposited data

Results flagged for a closer look

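In each group of 4 samples, a sample was marked when its gap to the nearest other sample as a share of the whole range exceeded Dixon's 95% critical value for 4 samples. Over the 81 members, the share of counts and the median, 166 groups were examined and 7 samples were marked, where chance gives 8.3. Rpl29 was high in control 2 (9.81 CPM), Rpl11 in control 1 (6.07 CPM), Rpl13 in control 1 (12.9 CPM), Rps23 in control 2 (3.01 CPM) and Rpl15 in dcKO_hGFAP-Cre 3 (193 CPM). Rps27a was low in dcKO_hGFAP-Cre 3 (5.73 CPM) and Rpl23a in dcKO_hGFAP-Cre 2 (0.593 CPM).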

How the results depend on the processing

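No member was called lower under any alternative run. The number called higher was 46 to 66 when 1 sample was left out, the median 0.44 to 0.59 and the ratio of shares of counts 1.45 to 1.62; 44 of the 56 calls were made in all 8 such fits. The offset for GC content and transcript length gave 35 calls and a median of 0.28. The log2 fold change then turned below 0 for 9 members, Rpl31 (-0.12), Rps26 (-0.081), Rps29 (-0.0080), Rpl36a (-0.15), Rps4x (-0.021), Rplp1 (-0.052), Rpl4 (-0.021), Rps2 (-0.13) and Rpl23 (-0.17). Alternatives chosen after seeing the data gave 29 calls without dcKO_hGFAP-Cre 1 and 2, and 13 calls among the 19 members with at least 75% unique words. Library totals shifted the median of all genes by 0.12 log2 units and gave 4584 genes higher and 2102 lower in place of 3074 and 3128. Members stood 0.50 above the median of all genes under both scalings, and 71 were called. Rpl21 turned to 0.076 under library totals and ranged from -0.11 to 0.010 when 1 sample was left out, above 0 without dcKO_hGFAP-Cre 1 or 4. The haemoglobin gene Hba-a2, of the erythroid list, turned to 0.034 under library totals and ranged from -0.26 to 0.15 when 1 sample was left out, above 0 without dcKO_hGFAP-Cre 4 or control 1. The cause was not tested.

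With the replicate number as a block, 51 members were called and the median was 0.51. Deviations of samples with the same number correlated at 0.17, -0.07, 0.21 and -0.02, so the numbers were not taken to pair the samples. Counting precision limits members such as Rpl23a and Rpl29, at about 1 CPM.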
